A study of Capra hircus with 9 samples.

Results

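CLEC4F is described in the deposited annotation as C-type lectin domain family 4, member F. It was taken as the row of the count table that carries this symbol, 1 of 25671 gene rows, and followed through all 9 libraries. The gene was chosen by its own counts over these libraries in an earlier look at them, so its levels are given as a description, with no test. The libraries are messenger RNA from uterine samples of Liaoning Cashmere goats, a fibre breed of Capra hircus, taken on day 6, day 16 and day 19 peri-implantation, with 3 libraries per day. The labels give no treatment, no age and no event from which the days are counted. They name the tissue as uterus, while the series title speaks of endometrial epithelium and the collection text of testis. They do not state whether a day's 3 samples are from different animals, so the p-values below reflect only how far these samples spread, in part perhaps for technical reasons.

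C-type lectins share a folded domain that, in many members, binds sugars with the help of calcium. CLEC4F is a membrane lectin that in mouse binds galactose and N-acetylgalactosamine, including on glycolipids, and in mouse it marks Kupffer cells, the macrophages of the liver. In ruminants the elongating conceptus secretes interferon tau around the time of maternal recognition, and interferon-stimulated genes are known to respond to it in the uterine lining.

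Sequencing gave 8712751 to 11074693 counts per library, and 18530 to 19243 genes were detected in each. EPCAM, an epithelial adhesion protein, averaged 197 ± 10.4 CPM (reads of a gene scaled to a common library total) on day 6, 330 ± 50.7 on day 16 and 320 ± 107 on day 19 (SD, n = 3 each). ACTA2, the actin of smooth muscle, averaged 5660 CPM on day 6, 5075 on day 16 and 7960.5 on day 19, and the fibroblast collagen COL3A1 averaged 9945, 5613 and 6080 CPM on the same days. Transcripts of epithelium, smooth muscle and stroma were thus all present in every day's libraries. Day 19 replicate 1 stood apart from its group: its counts differed from those of replicates 2 and 3 with a chi-square per degree of freedom of 149 and 133, against 24.1 between those 2, so results are also given without it. No pair of libraries of a day agreed within sampling noise, the lowest value being 10.4.

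CLEC4F was close to absent on day 6, abundant on day 16 and higher again on day 19. The day 6 libraries held 12, 1 and 6 counts of it, the day 16 libraries 1859, 2151 and 1684, and the day 19 libraries 5151, 4639 and 3404. After TMM normalization, which scales libraries on the bulk of genes that change little, this was 1.11, 0.103 and 0.585 CPM on day 6, 196, 245 and 152 CPM on day 16, and 500, 463 and 360 CPM on day 19. The days did not overlap: the highest day 6 library lay far below the lowest day 16 library, and the lowest day 19 library lay above the highest day 16 library. With so few reads, the day 6 values carry wide exact Poisson intervals of 0.576 to 1.95, 0.00261 to 0.574 and 0.215 to 1.27 CPM at 95%, which cover counting error only. The intervals of day 6 replicates 1 and 2 lie just apart, and that of replicate 3 overlaps both.

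**Figure D1:**
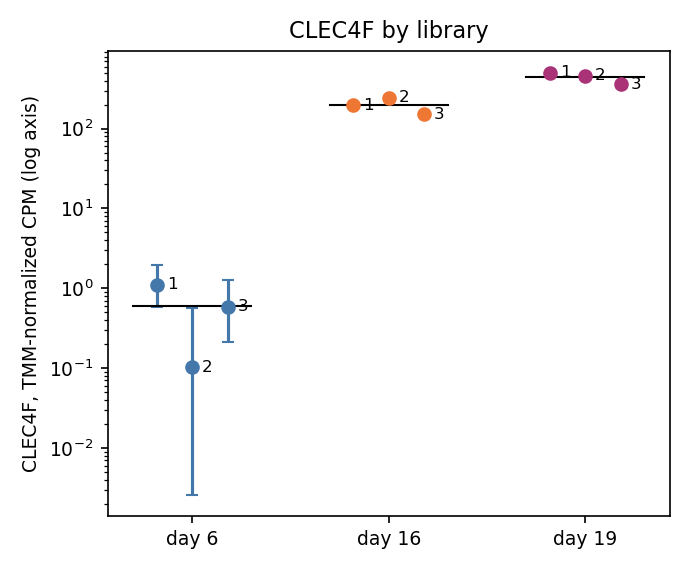
CLEC4F in each library as TMM-normalized CPM on a log axis, by day, with the replicate number beside each point; horizontal lines are day means and vertical bars are exact Poisson intervals at 95%, smaller than the points at days 16 and 19. The day means are 0.601, 198 and 441 CPM, and the 3 days do not overlap.

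The mean was 0.601 ± 0.506 CPM on day 6, 198 ± 46.6 on day 16 and 441 ± 72.7 on day 19 (SD, n = 3 each). The day 16 mean was 329 times the day 6 mean, and over single pairs of libraries the ratio ran from 136 to 2379. The day 19 mean was 735 times the day 6 mean, with pairs from 323 to 4859, and 2.23 times the day 16 mean, with pairs from 1.47 to 3.30. The order of the days was therefore the same whichever libraries were paired, and both steps were larger than the SDs of the days they join. How large the first step was depended on the few day 6 reads. Without day 6 replicate 1, which held most of them, the ratios to day 6 were 574 on day 16 and 1283 on day 19. Without day 19 replicate 1, the highest CLEC4F library, day 19 was 685 times day 6 and 2.08 times day 16.

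Set among all 16098 genes that passed the low-count filter, the fitted log2 fold change of CLEC4F ranked 18th from the top for day 16 against day 6, at 8.30, and 17th for day 19 against day 6, at 9.46. For day 19 against day 16 it ranked 592nd, at 1.16. On the log2 scale most of the difference between the first and last day thus lay in the step between day 6 and day 16. In CPM the means went from 0.601 to 198 and then to 441, so there the later step was the larger. In bulk samples a larger share of CLEC4F-bearing cells and more CLEC4F RNA per cell cannot be told apart.

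Genes with a similar course were looked for by a measure of likeness, the root-mean-square difference between a gene's log2 CPM and that of CLEC4F over the 9 libraries, each centred on its own mean. Among 9794 candidates with a true symbol and an average log2 CPM of at least 3, the median difference was 4.19 on the log2 scale, the same as that of a gene that does not vary at all. The nearest was ISG15, a ubiquitin-like modifier, with a difference of 0.505. GRP, which encodes gastrin-releasing peptide, followed at 0.877. These were the 2 candidates that came within 1 of CLEC4F. The next were ISG20, an interferon-stimulated exonuclease, at 1.08, the steroid dehydrogenase 3BHSD at 1.12, IFI6 at 1.21, the oligoadenylate synthetase OAS2 at 1.26, RSAD2, the antiviral enzyme viperin, at 1.37, the galectin LGALS16 at 1.40, the antiviral GTPase MX1 at 1.43 and the nucleic acid sensor ZBP1 at 1.44. The gene after these stood at 1.47, so the end of this list is arbitrary.

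ISG15 held 53, 27 and 64 counts on day 6, 8469, 13366 and 5300 on day 16, and 20475, 26483 and 21637 on day 19. Its day 16 mean was 207 times its day 6 mean and its day 19 mean 2.39 times its day 16 mean, close to the 329 and 2.23 of CLEC4F. GRP held 56, 91 and 34 counts on day 6, 7667, 19113 and 19761 on day 16, and 51131, 42039 and 25485 on day 19, with ratios of 267 and 2.49. Both had their 3 day 19 libraries above their 3 day 16 libraries in CPM, as CLEC4F did, and so did ISG20, IFI6, OAS2 and MX1.

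In the remaining genes the day 19 and day 16 libraries overlapped. RSAD2 was 166 times higher on day 16 than on day 6, yet on day 19 it averaged 0.616 of its day 16 level. ZBP1 had ratios of 69.7 and 0.923. LGALS16 had 2 counts in all on day 6, so its day 16 ratio of 9516 has a counting interval of 2634 to 78586, and its day 19 mean was 0.978 of the day 16 mean. 3BHSD had 0 counts on day 6; against a floor of 3 counts over that group it was at least 515-fold higher on day 16 and at least 1057-fold higher on day 19. OAS2 and LGALS16 belong to families of related genes. The authors' counting could have split reads between similar members, so their values are uncertain one by one.

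**Figure D2:**
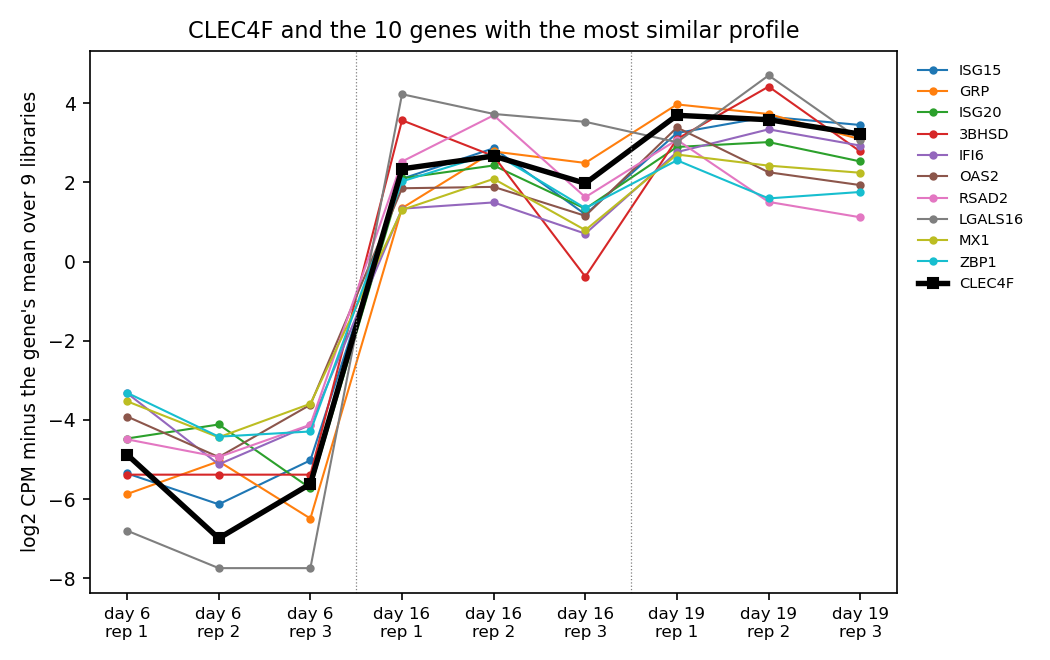
Log2 CPM minus each gene's own mean over 9 libraries, for CLEC4F (black squares) and the 10 genes nearest to it, with libraries ordered by day. All 11 curves are low in the 3 day 6 libraries; ISG15 lies nearest to CLEC4F, at a root-mean-square difference of 0.505, and the day 19 means of RSAD2 and ZBP1 are 0.616 and 0.923 of their day 16 means.

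This likeness came from the differences between days. With values centred within each day, which leaves only the variation between libraries of a day, 1 of the 10 genes stayed among the nearest 10, IFI6. With Pearson's r in place of the difference in size, 3 of the 10 stayed, ISG15, OAS2 and MX1, since r ignores how large a change is.

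The relatives of CLEC4F were examined as a list of 75 C-type lectin symbols, of which 62 were found in the table as 73 rows and 45 rows passed the low-count filter. On day 16 against day 6, 7 were higher and 2 lower, 20% of those tested, where 8.86% of all genes were called. Comparing day 19 with day 6, 15 were higher and 7 lower, 48.9% of those tested, against 22.9% of all genes. Comparing day 19 with day 16, 1 was higher and 0 lower, where 1.20% of all genes were called. The median log2 fold change of the 45 lectins was 0.29, 0.52 and 0.05 in these comparisons, against 0.00, 0.02 and 0.01 over all genes. A call means that edgeR's quasi-likelihood test gave p under 0.05 after Benjamini-Hochberg adjustment over the 16098 genes. Of all genes, 5.12% were called higher and 3.74% lower on day 16 against day 6, 12.7% and 10.2% on day 19 against day 6, and 0.516% and 0.683% on day 19 against day 16.

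These counts rest in part on single libraries. The 9 calls on day 16 against day 6 became 16 without day 19 replicate 1. They became 5 without day 16 replicate 1, 4 without day 16 replicate 2, and 3 without day 6 replicate 2 or 3. In that order the smaller counts are 11.1%, 8.51%, 6.38% and 6.38% of those tested. Of all genes, 4.71%, 4.64%, 4.84% and 4.05% were called in the same fits. The 22 calls on day 19 against day 6 became 13, 13 and 14 without day 6 replicates 1, 2 and 3. These are 27.7%, 27.7% and 29.8% of those tested, where 13.5%, 12.8% and 11.8% of all genes were called. On day 19 against day 16 there were 0 calls without any 1 of the other libraries, where at most 0.0978% of all genes were called. Without day 19 replicate 1 there were calls for 10 of 47 tested lectins, 4 higher and 6 lower. Leaving out that library raised the calls among all genes too, to 20.4% on day 16 against day 6, 44.7% on day 19 against day 16 and 54.2% on day 19 against day 6. The lectin shares in that fit were 34.0%, 21.3% and 46.8%, so in both comparisons of day 19 they lay below those of all genes.

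Closest to CLEC4F in kind are the lectins that bind galactose and N-acetylgalactosamine: CLEC10A, the macrophage galactose-type lectin, and ASGR1 and ASGR2, the subunits of the asialoglycoprotein receptor, which in liver takes up desialylated glycoproteins. All of them were scarce. The row LOC106503212, which the table matches to CLEC10A, held 3, 4 and 4 counts on day 6, 99, 167 and 58 on day 16, and 213, 249 and 246 on day 19. The days did not overlap, in the same order as for CLEC4F. It rose 32.1-fold on day 16 against day 6 (log2 fold change 4.96, SE 0.53; edgeR, adjusted p = 0.000593) and 66.3-fold on day 19 against day 6 (log2 fold change 6.01, SE 0.54; edgeR, adjusted p = 0.000168), the largest change of any tested lectin other than CLEC4F. Day 19 against day 16, at 1.05 on the log2 scale, did not pass (edgeR, adjusted p = 0.151; 0.0458 without day 19 replicate 1).

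ASGR1 held 8, 2 and 2 counts on day 6, 25, 18 and 54 on day 16, and 31, 64 and 37 on day 19. It was higher on day 16 than on day 6 by 3.01 on the log2 scale (SE 0.62; edgeR, adjusted p = 0.0161) and on day 19 than on day 6 by 3.48 (SE 0.62; edgeR, adjusted p = 0.00463). ASGR2 held 10, 0 and 9 counts on day 6, 43, 31 and 59 on day 16, and 11, 62 and 48 on day 19. Its day 16 libraries all lay above its day 6 libraries, but the difference did not pass (edgeR, adjusted p = 0.0755; 0.0133 without day 19 replicate 1). The difference between day 19 and day 6 passed by a small margin (log2 fold change 2.73, SE 0.86; edgeR, adjusted p = 0.0468), and the adjusted p ran up to 0.135 without single libraries: of the 9, only leaving out day 19 replicate 1 kept the call.

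CD207 encodes langerin, the lectin of Langerhans cells, and is the gene next to CLEC4F. It did not pass the low-count filter, with 0 counts in every day 6 library, 1, 6 and 3 on day 16, and 19, 11 and 4 on day 19. Against the floor of 3 counts over the day 6 group this is 3.49-fold higher on day 16 and 11.7-fold higher on day 19. These ratios leave out the counting error of the few reads on the later days.

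Among the myeloid receptors of the CLEC4 and CLEC6 group, the row LOC102180574, matched to the fungal receptor CLEC6A (dectin-2), held 10, 3 and 5 counts on day 6, 25, 33 and 23 on day 16, and 82, 90 and 65 on day 19. It rose by 2.25 on the log2 scale on day 16 against day 6 (SE 0.45; edgeR, adjusted p = 0.013) and by 3.75 on day 19 against day 6 (SE 0.45; edgeR, adjusted p = 0.000627). The row LOC102180291, matched to the inhibitory receptor CLEC4A, did not pass on day 16 (log2 fold change 1.31; edgeR, adjusted p = 0.104) and rose by 2.21 on day 19 against day 6 (SE 0.44; edgeR, adjusted p = 0.00721). CLEC4E, the receptor mincle, stayed between 3 and 22 counts in every library and was not called (edgeR, adjusted p = 0.943 on day 16 and 0.793 on day 19, each against day 6). The row matched to CD209, the lectin DC-SIGN, held 5 to 34 counts and was not called either, with log2 fold changes of -0.53 on day 16 and -0.50 on day 19 against day 6. The row matched to CLEC4G held 1 to 21 counts and was not tested. CLEC4C, CLEC4D and CLEC4M were not analysed here.

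**Figure D3:**
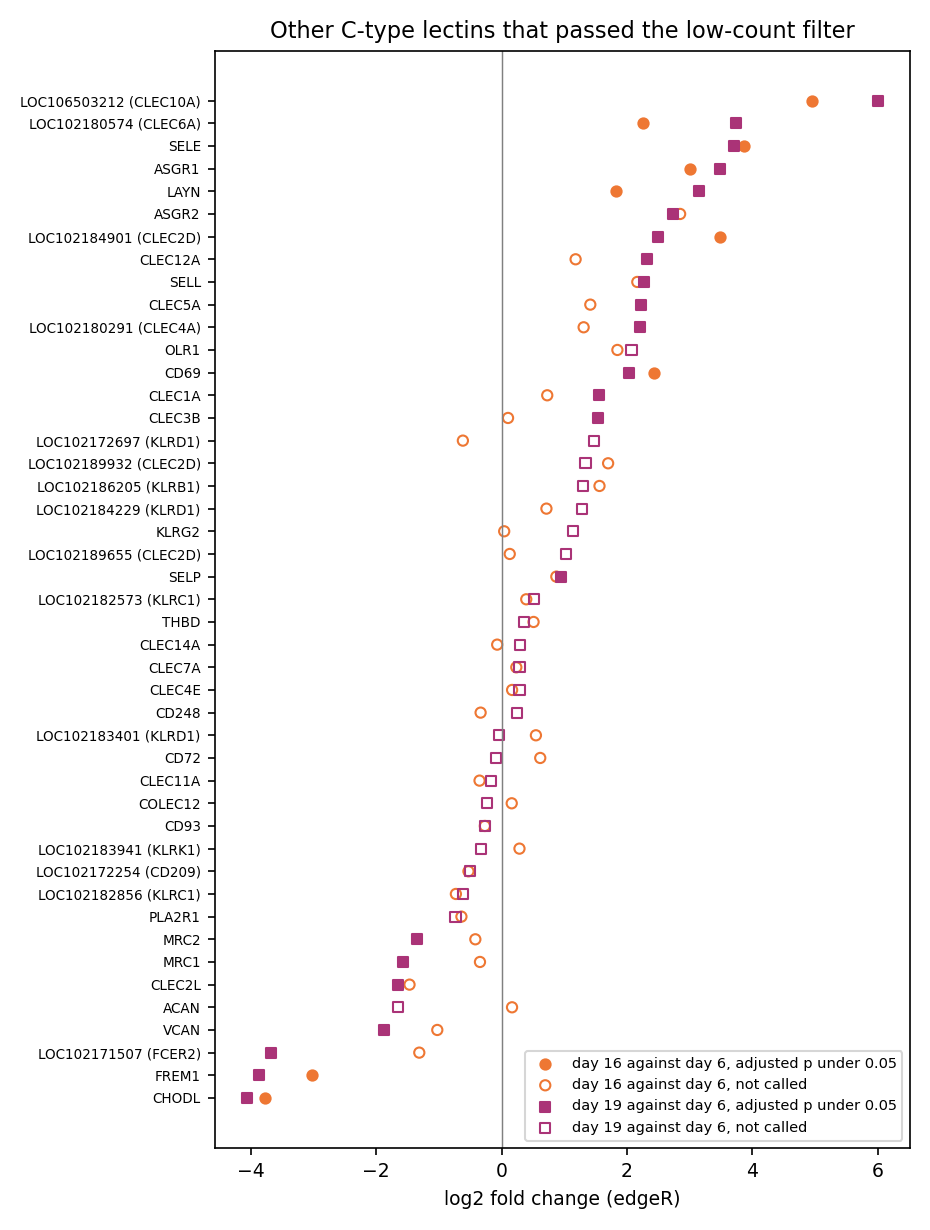
Log2 fold changes (edgeR) of the 45 tested C-type lectins other than CLEC4F, on day 16 (circles) and day 19 (squares) against day 6; filled symbols passed an adjusted p under 0.05, and rows named by a locus identifier have the matched symbol in brackets. The row matched to CLEC10A is at the top, at 4.96 and 6.01, and CHODL at the bottom, at -3.78 and -4.06.

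Other called lectins have different roles. The row LOC102184901, matched to the CLEC2D family of ligands for natural killer cell receptors, rose by 3.49 on day 16 (SE 0.63; edgeR, adjusted p = 0.00839). Other rows matched to CLEC2D were not called on day 16. LOC102189932 had a log2 fold change of 1.70 (edgeR, adjusted p = 0.0522), LOC102189655 had 0.13 (edgeR, adjusted p = 0.823), and LOC102188293 had 0 counts. CD69, an early activation marker of lymphocytes, rose by 2.43 on day 16 (SE 0.53; edgeR, adjusted p = 0.02). LAYN, the hyaluronan receptor layilin, averaged 26.2 ± 10.9 CPM on day 6, 92.6 ± 52.4 on day 16 and 233 ± 27.5 on day 19 (SD, n = 3 each). It rose by 1.82 on day 16 (SE 0.43; edgeR, adjusted p = 0.0282) and by 3.15 on day 19 (SE 0.45; edgeR, adjusted p = 0.00148), both against day 6. SELE, the endothelial selectin, had 33 counts over the day 16 libraries against 2 on day 6, 17.3 times as many per scaled read, with counting limits of 4.42 and 149 (edgeR, adjusted p = 0.0207). Its day 19 libraries held 14, 13 and 3 counts.

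The lectins that fell include the matrix proteins FREM1 and VCAN. CHODL, chondrolectin, fell by 3.78 on the log2 scale on day 16 (SE 0.60; edgeR, adjusted p = 0.00427) and fell by 4.06 on day 19 (SE 0.61; edgeR, adjusted p = 0.00188), both against day 6. FREM1, a basement membrane protein, fell by 3.03 on day 16 (SE 0.69; edgeR, adjusted p = 0.0253) and fell by 3.86 on day 19 (edgeR, adjusted p = 0.00574). Comparing day 19 with day 6, the matrix proteoglycan VCAN fell by 1.87, the macrophage mannose receptor MRC1 by 1.57, CLEC2L by 1.65 and the row matched to the IgE receptor FCER2 by 3.68 (edgeR, adjusted p between 0.0109 and 0.0484). The most abundant lectin by mean CPM was CLEC3B, tetranectin, a plasminogen-binding protein. It averaged 130 ± 38.9 CPM on day 6, 140 ± 9.08 on day 16 and 381 ± 84.8 on day 19 (SD, n = 3 each), and was the lectin called on day 19 against day 16 (log2 fold change 1.44, SE 0.26; edgeR, adjusted p = 0.0461). That call was lost in 8 of the 9 fits that left out 1 library, all but the one without day 19 replicate 1, with adjusted p up to 0.177.

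The day 16 calls of the row matched to CLEC10A, of the CLEC2D row LOC102184901 and of CHODL held without any 1 library. Those of ASGR1, SELE, CD69, LAYN, FREM1 and the row matched to CLEC6A were each lost without day 6 replicate 2 or 3, and some of them also without day 6 replicate 1 or a day 16 library, with the highest adjusted p of each gene between 0.0697 and 0.119 (edgeR). Between day 19 and day 6 the calls of the rows matched to CLEC10A, CLEC6A and CLEC4A and of ASGR1, LAYN, CHODL, FREM1, CLEC3B and MRC1 held without any 1 library. Those of SELE, CD69, VCAN, CLEC2L and the row matched to FCER2 did not.

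Because CLEC4F marks Kupffer cells in mouse, 30 rows of macrophage and Kupffer cell markers were examined, of which 26 were tested. On day 16 against day 6, 6 were higher and 0 lower, 23.1% of those tested against 8.86% of all genes. Comparing day 19 with day 6, 13 were higher and 2 lower, 57.7% against 22.9%. Between day 19 and day 16, 0 were called by edgeR, where it called 1.2% of all genes. Before adjustment 12 of the 26 had p under 0.05 by edgeR, as had 3946 of all 16098 genes tested. DESeq2 called 7, where it called 7.83% of all genes. Their summed level was 689 to 1335 CPM on day 6, 1299 to 1667 on day 16 and 1767 to 2349 on day 19. It thus moved in the same direction as CLEC4F, and its part in the CLEC4F levels was not tested. The day 16 count became 3 without day 6 replicate 2 or 3 or day 16 replicate 2. That is 11.5% of those tested, where 4.84%, 4.05% and 4.64% of all genes were called. The count became 9 without day 19 replicate 1, 34.6% where 20.4% of all genes were called. Without that library 13 markers were called on day 19 against day 16, 10 higher and 3 lower, which is 50% of them beside 44.7% of all genes. The count of 15 on day 19 against day 6 became 8 without day 6 replicate 2 or 3. That is 30.8% of those tested, beside 12.8% and 11.8% of all genes.

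Of the markers that define macrophages, CD68, CSF1R and C1QA were not called on day 16 against day 6, while the row matched to CD163 was. CD68, a lysosomal glycoprotein, averaged 92.8 ± 25.5 CPM on day 6, 100 ± 5.48 on day 16 and 153 ± 56.6 on day 19 (SD, n = 3 each), and was not called on day 16 or day 19 against day 6 (edgeR, adjusted p = 0.904 and 0.11). On day 19 it passed without day 19 replicate 1 (edgeR, adjusted p = 0.00202). CSF1R, the receptor for the macrophage growth factor, and the complement gene C1QA were not called on day 16 (edgeR, adjusted p = 0.793 and 0.565), and rose on day 19 against day 6 by 1.10 (SE 0.28; edgeR, adjusted p = 0.021) and 1.73 (SE 0.42; edgeR, adjusted p = 0.0175) on the log2 scale. Leaving out day 6 replicate 2, day 6 replicate 3 or day 19 replicate 2 ended both calls. The row LOC102183943, matched to the scavenger receptor CD163, rose by 1.42 on day 16 against day 6 (SE 0.38; edgeR, adjusted p = 0.0473), a call lost in 7 of the 9 fits that left out 1 library, all but those without day 16 replicate 1 and day 19 replicate 1.

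Of the markers that define Kupffer cells, TIMD4, a receptor for phosphatidylserine on dying cells, did rise. Its row, LOC102175398, held 41, 18 and 25 counts on day 6, 272, 307 and 202 on day 16, and 494, 548 and 652 on day 19. The days did not overlap, and it rose by 3.32 on the log2 scale on day 16 against day 6 (SE 0.35; edgeR, adjusted p = 0.0005) and by 4.39 on day 19 against day 6 (SE 0.36; edgeR, adjusted p = 0.000119), in every fit that left out 1 library. The other defining Kupffer cell markers were at or near 0 or level. CD5L held 24, 7 and 0 counts on day 6, 3, 3 and 1 on day 16, and 0, 1 and 1 on day 19. MARCO held 0 to 3 counts in every library. VSIG4 averaged 3.39, 3.30 and 3.93 CPM over the 3 days and was not called on day 16 or day 19 against day 6 (edgeR, adjusted p = 0.98 and 0.771).

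MERTK, a receptor for uptake of dying cells that epithelia also carry, averaged 42.7 ± 7.81 CPM on day 6, 248 ± 35.6 on day 16 and 188 ± 21.1 on day 19 (SD, n = 3 each) and rose by 2.54 on the log2 scale on day 16 against day 6 (SE 0.21; edgeR, adjusted p = 0.000194). A row matched to the Fc receptor FCGR1A rose by 1.72 and the lipopolysaccharide co-receptor CD14 by 1.40 on day 16 against day 6 (edgeR, adjusted p = 0.00751 and 0.0174); the call of CD14 needed both day 6 replicates 2 and 3 and both day 16 replicates 1 and 2. On day 19 against day 6, AIF1, a cytoskeletal protein of macrophages, rose by 2.71 (SE 0.37; edgeR, adjusted p = 0.00126). The 2 called lower on day 19 were MRC1, also counted among the lectins, and the iron exporter SLC40A1, by 1.57 and 1.35 (edgeR, adjusted p = 0.0109 and 0.009). Of the 26 tested markers, 20 had a log2 fold change above 0 there. A row matched to ADGRE1 held 67 counts on day 6, 5 on day 16 and 17 on day 19. It was not called against day 6 (edgeR, adjusted p = 0.124 and 0.213). Another ADGRE1 row, not tested, held 31, 3 and 1. NR1H3 averaged 62.9, 35.6 and 44.9 CPM and was not called (edgeR, adjusted p = 0.183 and 0.298). The most abundant marker by mean CPM was C1QA.

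CLEC4F changed more than the marker sum did. Per 1000 counts of the macrophage markers it stood at 0.559 ± 0.362 on day 6, 137 ± 21.1 on day 16 and 217 ± 58.3 on day 19 (SD, n = 3 each). The day 16 value was 245 times and the day 19 value 389 times the day 6 value, and day 19 was 1.59 times day 16. All 3 libraries of each later day lay above all of the earlier day, as in the CPM. In day 19 replicate 1 CLEC4F was at its highest, 500 CPM, while the macrophage marker sum, at 1767 CPM, was the lowest of that day. On the other days the highest library was the same for both. Day 16 replicate 2 held 245 CPM of CLEC4F and a marker sum of 1667 CPM. The day 6 libraries had the same order in both, with marker sums of 1335, 689 and 844 CPM in replicates 1, 2 and 3. For CLEC4F that order rests on 12, 1 and 6 counts, and the counting interval of replicate 3 overlaps both others.

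Since the series title names epithelium, 24 rows of epithelial markers were examined, all of which were tested. Their summed level did not follow CLEC4F: it was 2429 to 2982 CPM on day 6, 2787 to 2898 on day 16 and 1864 to 3551 on day 19. Per 1000 counts of these markers CLEC4F stood at 0.219 ± 0.167 on day 6, 69.5 ± 17.6 on day 16 and 178 ± 78.1 on day 19 (SD, n = 3 each). The day 16 value was 317 times and the day 19 value 815 times the day 6 value, about the ratios of its CPM. Per 1000 EPCAM counts it stood at 3.12 ± 2.75, 623 ± 236 and 1525 ± 740 over the 3 days. Day 19 replicate 1 again combined the highest CLEC4F with the lowest marker sum of its day, 1864 CPM. So did day 16 replicate 2, at 2787 CPM, while day 6 replicate 1, with 12 counts of CLEC4F, was the highest of its day in both.

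**Figure D4:**
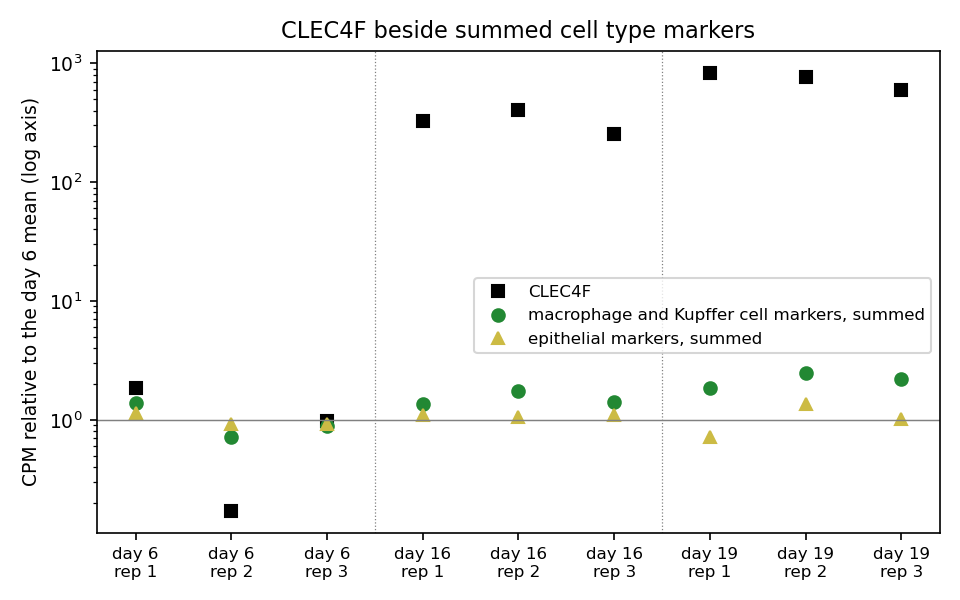
CPM of CLEC4F, of the summed macrophage and Kupffer cell markers and of the summed epithelial markers in each library, divided by their own day 6 mean, on a log axis. At days 16 and 19 the mean of CLEC4F is 329 and 735 times that of day 6, the macrophage sum 1.50 and 2.16 times and the epithelial sum 1.09 and 1.03 times.

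Within the epithelial list the members moved both ways. On day 16 against day 6, 5 were higher and 2 lower, 29.2% of those tested against 8.86% of all genes; on day 19 against day 6, 5 were higher and 6 lower, 45.8% against 22.9%. The vesicle protein MAL2 rose by 3.56, the apical mucin MUC1 by 3.42, the membrane protease PRSS8 by 2.85 and the tight junction protein CLDN4 by 2.50 on the log2 scale on day 16, while the secreted protein WFDC2 fell by 3.27 and the keratin KRT7 by 1.84 (edgeR, adjusted p between 0.00136 and 0.00996). These calls held without any 1 library. On day 19 against day 6, those that fell include the membrane protease ST14, by 1.42 (SE 0.22; edgeR, adjusted p = 0.00209). EPCAM was not called on day 16 or day 19 against day 6 (edgeR, adjusted p = 0.117 and 0.076), nor was the most abundant member, the protease inhibitor SPINT2 (edgeR, adjusted p = 0.775 and 0.42). Without day 19 replicate 1 the adjusted p was 0.00789 and 0.00116 for EPCAM and 0.326 and 0.00827 for SPINT2 (edgeR). On day 19 against day 16, DESeq2 called 6 of the 24, where it called 7.83% of all genes. There edgeR called 0 of them and 1.2% of all genes. Before adjustment 6 had p under 0.05 by edgeR, as had 3946 of all 16098 genes tested. Without day 19 replicate 1 the calls were 10 higher and 7 lower on day 16 against day 6, 70.8% of the members beside 20.4% of all genes, and 13 higher and 6 lower on day 19 against day 6, 79.2% beside 54.2%. On day 19 against day 16 they were 6 higher and 5 lower, 45.8% beside 44.7%. The count on day 19 against day 6 fell to 7 without day 6 replicate 2 or 3. That is 29.2% of the members, beside 12.8% and 11.8% of all genes.

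CLEC4F in mouse recognises sugars ending in galactose or N-acetylgalactosamine, which sialic acid can cap, so 43 rows of genes that build, cap or remove such ends were examined, of which 37 were tested. On day 16 against day 6, 2 were higher and 1 lower, 8.11% of those tested against 8.86% of all genes, and on day 19 against day 6, 1 was higher and 5 lower, 16.2% against 22.9%. Their median log2 fold change was -0.10 and -0.30. NEU1, the lysosomal sialidase that removes sialic acid, averaged 28.8 ± 2.49 CPM on day 6, 143 ± 37.4 on day 16 and 75.8 ± 42.1 on day 19 (SD, n = 3 each). It rose by 2.31 on the log2 scale on day 16 against day 6 (SE 0.37; edgeR, adjusted p = 0.0047), in every fit that left out 1 library. It rose by 1.39 on day 19 against day 6 (edgeR, adjusted p = 0.0222), a call lost without any 1 of the day 6 libraries or without day 19 replicate 2.

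UGCG, which makes glucosylceramide, the base of most glycolipids, rose by 1.14 on day 16 against day 6 (SE 0.29; edgeR, adjusted p = 0.0387). B4GALNT2, which adds N-acetylgalactosamine beside sialic acid, fell by 1.11 on day 16 (SE 0.28; edgeR, adjusted p = 0.0377) and by 1.81 on day 19 (SE 0.29; edgeR, adjusted p = 0.00247), both against day 6. The day 16 calls of UGCG and B4GALNT2 were lost without any 1 library of day 6 or day 16. The sialyltransferases ST8SIA6, ST8SIA4, ST3GAL2 and ST6GAL1 fell on day 19 against day 6, by 2.97, 1.57, 1.54 and 1.35. ST8SIA6 was also the member called on day 19 against day 16, with 18, 5 and 0 counts on day 19 against 146, 85 and 115 on day 16 (log2 fold change -3.93, SE 0.76; edgeR, adjusted p = 0.0474), a call lost in 8 of the 9 fits that left out 1 library, with adjusted p up to 0.175. PSAP, the precursor of lysosomal activators of glycolipid breakdown and the most abundant member, averaged 1194 CPM on day 6, 1181 on day 16 and 1520 on day 19 and was not called.

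These counts too rest on single libraries. Without day 19 replicate 1 they were 3 higher and 4 lower on day 16 against day 6, 18.9% of the members beside 20.4% of all genes, and 2 higher and 14 lower on day 19 against day 6, 43.2% beside 54.2%. On day 19 against day 16 they were 4 higher and 14 lower, 48.6% beside 44.7%. Without any 1 library of day 6 or day 16, 1 member was called on day 16, 2.70% beside 4.05% to 6.37% of all genes. Between day 19 and day 6 leaving out day 6 replicates 1, 2 and 3 in turn gave 2, 4 and 3 calls, and leaving out day 19 replicate 2 gave 3. In that order these are 5.41%, 10.8%, 8.11% and 8.11% of the members, beside 13.5%, 12.8%, 11.8% and 14.4% of all genes.

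None of the tested genes around CLEC4F was called with all libraries. In the gene order of the ARS1.2 reference assembly, used for order only, the table's rows before it are TEX261, ANKRD53, ATP6V1B1, VAX2 and CD207, and those after it are LOC102188600 (matched to FIGLA), ADD2, TGFA and 2 pseudogenes. ANKRD53 had 0 counts in every library, the row matched to FIGLA had 0 counts except for 2 and 4 in day 19 replicates 2 and 3, and VAX2 and ATP6V1B1 had at most 7 and 14. TEX261 counts ran from 717 to 835 on day 6, 699 to 959 on day 16, and 741 to 1020 on day 19. It was not called on day 16 or day 19 against day 6 (edgeR, adjusted p = 0.83 and 0.239), nor was ADD2, which encodes a cytoskeletal adducin (edgeR, adjusted p = 0.67 and 0.918). TGFA, a ligand of the epidermal growth factor receptor, was not called on day 16 (edgeR, adjusted p = 0.671) and had a log2 fold change of -2.11 on day 19 against day 6, which edgeR did not call (adjusted p = 0.0681) and DESeq2 did (adjusted p = 0.0183). The pseudogenes were not called in any comparison. Without day 19 replicate 1, on day 19 against day 6, edgeR gave adjusted p = 0.00913 for TEX261, 0.000242 for TGFA and 0.0385 for the pseudogene LOC102189133. Without that library it gave, on day 19 against day 16, adjusted p = 0.0367 for TEX261, 0.0373 for ADD2, 0.00109 for TGFA and 0.0381 for the pseudogene LOC102186488.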

How the data were processed

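Poly(A) RNA was purified, fragmented and sequenced on an Ion Proton, per the labels' protocols and the series design text. The deposited values are raw counts of reads for each gene, whole numbers without normalization, in 1 table of 9 columns. Strand use, annotation, genome build, aligner and counter are not given in the sources used.

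CLEC4F and the gene lists were chosen with earlier results of these data known. CPM were scaled by TMM. Tests used edgeR 4.0.16 under R 4.3.3 (filterByExpr on the day, robust quasi-likelihood fit of all 9 libraries with the day as its only term, Benjamini-Hochberg over 16098 genes). Standard errors (SE) were derived from the F statistic. The step was tested on simulated counts with known fold changes. Log2 CPM used a prior count of 2.

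List symbols were matched to the table's gene symbol or, for rows named by a locus identifier, to the table's own best-match symbol, a rule set after the table was seen. The CD163 match left out 5 rows described as WC1 antigen. The text names CLEC4F, its neighbours, the 10 genes nearest to it, the closest lectins whatever their values, and up to 6 called members of each list per direction, with its most abundant member; other genes were chosen after their values were seen. Of the genes this rule names, 2 are not reported here. Ratios to a group with 0 counts use a floor of 3 counts over the group. The alternatives were DESeq2 1.42.0, RLE and upper quartile scaling, total counts, no filter and a stricter filter, only the libraries of the 2 days compared, the replicate number as a block, other measures of likeness, and leaving out each library in turn.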

Additional observations from a re-analysis of the deposited data

How the results depend on the processing

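The order of the 3 days for CLEC4F held under every scaling and without any 1 library. Without single libraries its ratio ran from 233 to 574 for day 16 against day 6, from 2.00 to 2.54 for day 19 against day 16 and from 519 to 1283 for day 19 against day 6; with total counts as the only scaling the ratios were 312, 2.01 and 627. The counts of called list members moved more, and in some the balance of higher and lower calls turned. Without single libraries, at day 16 against day 6, day 19 against day 16 and day 19 against day 6 in turn, 3 to 16, 0 to 10 and 13 to 22 C-type lectins were called, 3 to 9, 0 to 13 and 8 to 18 macrophage markers, 6 to 17, 0 to 11 and 7 to 19 epithelial markers, and 1 to 7, 0 to 18 and 2 to 16 sugar genes. The lowest shares of all genes called in these fits were 4.05%, 0% and 11.8%. Each of the highest values of the lists came without day 19 replicate 1, where 20.4%, 44.7% and 54.2% of all genes were called. There the lectins of day 19 against day 16 had 4 higher and 6 lower calls (1 and 0 with all libraries), the sugar genes of day 16 against day 6 had 3 and 4 (2 and 1), and the epithelial markers of day 19 against day 6 had 13 and 6 (5 and 6). The cause was not tested, here or for the shifts below. With DESeq2, 15 lectins were called at day 16 against day 6, 27.8% of those given an adjusted p, beside 10.4% of all genes. At day 19 against day 16 it called 6 lectins, 7 macrophage markers, 6 epithelial markers and 3 sugar genes. These are 13.6%, 26.9%, 25% and 8.11%, beside 7.83% of all genes. At day 19 against day 6 it called 11 sugar genes, 28.9% beside 22.8% of all genes. The shares of all genes also count genes without an adjusted p. With only the libraries of the 2 days, 15 lectins, 16 epithelial markers and 9 sugar genes (4 higher, 5 lower) were called at day 16 against day 6, where 19.8% of all genes were; at day 19 against day 16, 0 genes were called, so 0 lectins and 0 sugar genes. With those libraries, as with the replicate block, the epithelial calls of day 19 against day 6 were 5 higher and 4 lower. That is 37.5% of the members, beside 15% and 18% of all genes. The stricter filter gave 1 epithelial marker at day 19 against day 16, 4.17% beside 1.5% of all genes. Of the 10 genes nearest to CLEC4F, 3 stayed with Pearson's r, 1 with values centred within each day and 8 to 10 without single libraries. Same-numbered libraries did not deviate together over all genes (correlations of -0.164 to 0.153, against -0.134 to 0.20 for other pairs). This cannot show that no pairing exists, since one confined to some genes could go unseen. With the replicate number as a block 0 genes were called at day 19 against day 16, so 0 lectins and 0 sugar genes. As ratios of geometric means, which no pairing of libraries alters, the CLEC4F ratios were 477, 2.25 and 1075. Depth limits the day 6 level of CLEC4F, which rests on 19 reads.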

Other observations

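Summed over all 73 C-type lectin rows, CLEC4F not among them, the CPM lay between 900 and 1192 on day 6, between 894 and 1057 on day 16 and between 1220 and 1275 on day 19.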
